A study of Mus musculus with 15 samples.

Results

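The proteasome genes described here are 35 genes that encode subunits of the 20S core particle and the 19S cap of the constitutive proteasome, with 3 chaperones of cap assembly. They were picked out by gene symbol from the 22524 gene identifiers in the count tables, and all 35 had a row. The core set holds 14 genes, 7 for the alpha rings and 7 for the beta rings, and the cap set holds 21 genes, 6 for ATPases, 12 for non-ATPase subunits and the 3 chaperones (Psmd5, Psmd9 and Psmd10). The subunits that replace core subunits in the immunoproteasome are set apart.

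RNA was sequenced from 7 mice heterozygous for Rps9 D95N, an amino acid change in a small-subunit ribosomal protein that the study's title ties to error-prone translation, and from 8 wild-type (WT) littermates. Every mouse was female, of strain C57BL/6 and 18 months old, so the comparison asks how aged tissue with 1 substituted copy of this gene differs from tissue with none. How the allele was made, and which cells carry it, is not given in the sources used here, and neither batches nor litters nor dates are labelled. The labels conflict on tissue, with brain cortex in the design text and skeletal muscle in the samples' tissue field, and the markers were those of brain. The 8 neuronal markers summed to 8112 to 9642 CPM (reads of a gene relative to the scaled depth of its library) in D95N libraries and 8047 to 8722 CPM in WT libraries, and the 10 skeletal muscle markers to 9.85 to 18.7 CPM in D95N libraries and 10.5 to 42.7 CPM in WT libraries.

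The proteasome degrades proteins that carry ubiquitin chains. The cap binds the chain, removes it, unfolds the protein with its ring of ATPases and threads it through the gate of the alpha rings into the core, where beta subunits cut it. Neurons rely on this system for the turnover of synaptic and misfolded proteins, and cells that lose proteasome capacity raise transcription of the subunit genes through the factor Nfe2l1.

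Total counts per library ran from 23349381 to 34587082, with a mean of 28994800 ± 3924640 in D95N and 31533300 ± 2071890 in WT (SD, n = 7 and 8). A two-sided exact permutation test of that difference gave p = 0.14. Levels are given in CPM with TMM scaling. Fold changes are D95N over WT on the log2 scale ± SE, and the adjusted p is that of edgeR's quasi-likelihood test with Benjamini-Hochberg adjustment over all 14989 tested genes, called "edgeR adjusted p" from here on, with a threshold of 0.05. Rps9 itself averaged 63.1 CPM in D95N and 65.3 CPM in WT, with a log2 fold change of -0.05 ± 0.05 (edgeR adjusted p = 0.505), and total transcript cannot tell the alleles apart. The labels name separate animals, so the spread is that between mice. In all, 8 of the 35 genes (Psma2, Psma4, Psmb7, Psmc3, Psmd1, Psmd5, Psmd9 and Psmd13) overlap another gene that has a row, and reads from the overlap may be split between rows.

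All 35 proteasome genes passed the expression filter, so none is missing from the counts that follow. In D95N 10 of the 35 were higher and 0 were lower, against a background of 15.2% of all tested genes called higher, 11.6% called lower and 26.8% called in either direction. The 10 genes were Psma2, Psmb4, Psmb6 and Psmb7 of the core and Psmc4, Psmd3, Psmd12, Adrm1, Psmd5 and Psmd9 of the cap. Their share, 28.57%, was close to the background in either direction, while the direction was one way. The increases were small, between 1.07-fold for Psma2 and 1.2-fold for Adrm1. Over all 35 genes the median log2 fold change was 0.09, beside -0.01 over all tested genes, and 30 of 35 (85.71%) had a log2 fold change above 0, beside 48.08% of all tested genes. The split of all called genes was 2272 higher and 1744 lower with TMM factors, 1808 higher and 2536 lower with library totals, and 1926 higher and 2351 lower with upper-quartile factors. Both of those scalings gave 9 of 35 proteasome genes higher and 0 lower, and with library totals their median was 0.05, beside -0.04 over all tested genes. Leaving out 1 library at a time gave 9 to 16 proteasome genes higher and 0 lower. The highest count, 7 in the core and 9 in the cap, came without D95N 42, where 33.1% of all tested genes were called in either direction.

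With the 3 assembly chaperones counted in the cap, core and cap gave the same share of calls under TMM scaling. In the core 4 of 14 genes were higher and in the cap 6 of 21, 28.57% in both. Library totals gave 3 core and 6 cap genes, and a correction for GC content and length gave 6 and 13. With TMM factors 12 of 14 core genes and 18 of 21 cap genes had a log2 fold change above 0. The median log2 fold change was 0.10 in the core and 0.09 in the cap. By role, 1 of 7 alpha genes and 3 of 7 beta genes were called higher. In the cap set the counts were 1 of 6 ATPase genes, 3 of 12 non-ATPase genes and 2 of 3 chaperone genes. Of all tested genes 15.2% were called higher, and the alpha and ATPase shares, 14.29% and 16.67%, were near that. The sets are small, so a single gene changes their shares a lot. The difference between these sets was not tested.

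**Figure D1:**
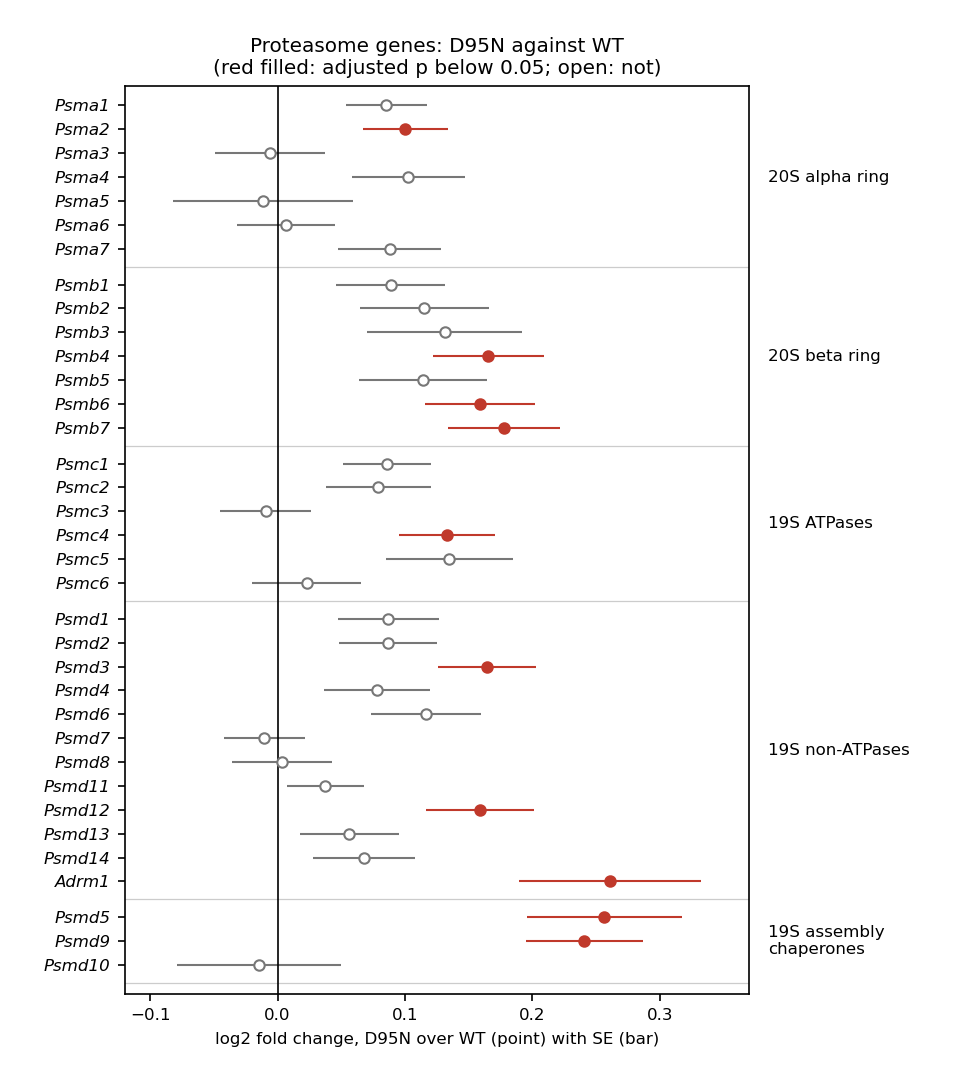
Log2 fold change of each of the 35 proteasome genes, D95N over WT (horizontal axis), with the SE as bar, ordered by role. Filled points passed the test and open points did not; the 10 filled points lie to the right of 0, between 0.10 and 0.26, and 5 genes lie just left of 0.

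Values of other cell types moved with the genotype in the same libraries. All 8 blood markers were lower in D95N, with a summed level of 37.3 to 149 CPM in D95N and 81.4 to 312 CPM in WT. Of 11 meningeal markers 5 were lower and 0 were higher, with a summed level of 87.9 to 174 CPM in D95N and 155 to 216 CPM in WT, and no marker was at 0 in every library. Of the 8 neuronal markers 3 were higher and 1 was lower. The higher ones were Slc17a7, Stmn2 and Gad1, and the lower one was Syt1, a calcium sensor of synaptic vesicles, at a log2 fold change of -0.15 ± 0.03 (edgeR adjusted p = 0.00230), while Snap25 had -0.05 ± 0.03 (edgeR adjusted p = 0.283). Slc17a7, the vesicular glutamate transporter of excitatory neurons, stood at 1196, 1881 and 2139 CPM (lowest, median, highest) in D95N and at 1144, 1241 and 1458 CPM in WT, the largest log2 fold change of the list at 0.50 ± 0.10 (edgeR adjusted p = 0.00232). Syt1 stood at 1477, 1576 and 1645 CPM in D95N and at 1646, 1754 and 1804 CPM in WT, so its groups did not overlap. With the blood and meningeal scores (mean log2 CPM of the tested markers) as covariates, 0 of the 35 proteasome genes passed, and 11 of 14989 genes (0.0734%) passed at all. The median log2 fold change of the 35 was 0.01, and their median SE was 0.07, against 0.04 without covariates. The blood score ran from 1.46 to 2.55 in D95N and from 2.09 to 4.51 in WT. For the meningeal score the ranges were 2.37 to 3.17 and 2.99 to 3.51. Both scores thus differed by genotype themselves, so this fit cannot separate a difference by genotype from one that goes with the scores. In a bulk sample fewer cells of a type and less RNA per cell cannot be told apart.

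RefSeq promoters were at hand for 29 of the 35 genes, 8 of the 10 called ones among them. The antioxidant response element core TGACNNNGC, the motif that Nfe2l1 and Nfe2l2 bind with small Maf proteins, was looked for on both strands in the 250 bases before the RefSeq start. A gene can have more than 1 promoter in the table, so genes with a match in any of their promoters were counted. It was found in 6 of 29 genes (20.7%), Psmb5, Psmb6, Psmc6, Psmd9, Psmd12 and Adrm1, beside 11.5% of all 27025 genes. By promoter it was 6 of 31, beside 10.2% of all 32851 promoters. The 4 windows shown belong to the genes that both carry the letters and were higher in D95N, with the match in capitals. All are on the plus strand of GRCm38.p6 and read 5′ to 3′, at chr11:70525107-70525356 for Psmb6, chr11:107479278-107479527 for Psmd12, chr2:180171338-180171587 for Adrm1 and chr5:123227940-123228189 for Psmd9.
Psmb6: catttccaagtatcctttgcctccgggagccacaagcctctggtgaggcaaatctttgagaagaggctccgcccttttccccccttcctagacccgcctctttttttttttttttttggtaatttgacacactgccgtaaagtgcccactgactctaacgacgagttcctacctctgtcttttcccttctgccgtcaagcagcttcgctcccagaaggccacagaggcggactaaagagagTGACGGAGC
Psmd12: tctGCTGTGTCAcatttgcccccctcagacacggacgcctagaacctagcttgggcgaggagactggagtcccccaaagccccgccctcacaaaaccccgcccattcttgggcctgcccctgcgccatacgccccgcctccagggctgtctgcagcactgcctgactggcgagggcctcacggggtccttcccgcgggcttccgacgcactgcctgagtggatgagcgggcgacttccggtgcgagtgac
Adrm1: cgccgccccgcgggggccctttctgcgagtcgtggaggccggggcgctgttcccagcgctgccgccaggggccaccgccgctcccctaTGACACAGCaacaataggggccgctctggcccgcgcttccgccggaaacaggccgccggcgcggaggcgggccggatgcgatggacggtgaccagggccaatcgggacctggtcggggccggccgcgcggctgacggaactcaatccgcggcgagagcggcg
Psmd9: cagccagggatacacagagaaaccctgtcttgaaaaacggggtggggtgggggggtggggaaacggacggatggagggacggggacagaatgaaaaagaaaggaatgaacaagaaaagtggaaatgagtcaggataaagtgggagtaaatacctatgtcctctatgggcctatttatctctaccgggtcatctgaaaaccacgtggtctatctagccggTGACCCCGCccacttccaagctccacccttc
The match begins 9 bases before the start in Psmb6, 31 in Psmd9 and 162 in Adrm1, on the strand printed. In Psmd12 it begins 247 bases before the start and lies on the other strand, as GCTGTGTCA. The RefSeq starts of Psmd9, Psmd12 and Adrm1 lie inside the longer genes of GENCODE M21, the annotation used for coordinates here. Part or all of each of those windows is thus inside the annotated gene. A CCAAT box (CCAAT, both strands) was found in 12 of 29 proteasome genes (41.4%) and 37.5% of all genes, and the heat shock element pair GAANNTTC in 1 of 29 (3.45%), Psmb5, and 7.73% of all genes. By promoter these were 12 of 31 and 1 of 31, beside 33.8% and 6.69% of all promoters. The motifs were searched for separately, so matches may overlap. A match is a description of letters and not a bound site, and the windows were not tied to the fold changes by any test.

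The alpha rings form the outer walls of the core and hold its gate shut until a cap docks. Of the 7 alpha genes Psma2 was higher. Psma2 (chromosome 13, 14613240 to 14674236 of GRCm38) stood at 63.3, 68.9 and 70.9 CPM (lowest, median, highest) in D95N and at 60.2, 63.4 and 66.2 CPM in WT, 1.07-fold at a log2 fold change of 0.10 ± 0.03 (edgeR adjusted p = 0.0326). The groups overlapped, with 6 of 7 D95N libraries above the highest WT library. The call held in 9 of 15 fits that left out 1 library and was lost without D95N 21, D95N 44, WT 11, WT 30, WT 32 or WT 43, at an edgeR adjusted p of up to 0.0672. It was also lost with library totals (edgeR adjusted p = 0.126) and upper-quartile factors (edgeR adjusted p = 0.0901). Psma2 shares its strand with the overlapping gene AW209491, whose log2 fold change was -0.12 ± 0.05 (edgeR adjusted p = 0.0613), so the reads of the 2 genes may be split between them.

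No other alpha gene passed. Psma1 stood at 79.3, 83.6 and 87.6 CPM in D95N and at 74.8, 77.9 and 83.1 CPM in WT, a log2 fold change of 0.09 ± 0.03 (edgeR adjusted p = 0.0550), with 4 of 7 D95N libraries above every WT library. Psma4 had a log2 fold change of 0.10 ± 0.04 (edgeR adjusted p = 0.0933) and Psma7 one of 0.09 ± 0.04 (edgeR adjusted p = 0.114). The remaining 3 alpha genes, Psma3, Psma5 and Psma6, had log2 fold changes of -0.01, -0.01 and 0.01. Psma3 and Psma5 had medians of 19.8 and 13.7 CPM in D95N and 19.6 and 13.7 CPM in WT, and their groups overlapped throughout.

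The beta rings carry the cutting sites. Psmb5 holds the chymotrypsin-like site, Psmb6 the caspase-like site and Psmb7 the trypsin-like site, while Psmb1, Psmb2, Psmb3 and Psmb4 are structural. Each of the 7 beta genes had a log2 fold change above 0, and Psmb4, Psmb6 and Psmb7 passed the test. Psmb7 (chromosome 2, 38588036 to 38644087) stood at 101, 109 and 123 CPM in D95N and at 88.4, 95.7 and 106 CPM in WT, 1.13-fold at a log2 fold change of 0.18 ± 0.04 (edgeR adjusted p = 0.00717). For Psmb7 the groups overlapped, with 5 of 7 D95N libraries above every WT library. Nek6, a kinase gene that overlaps Psmb7 on the opposite strand, was higher too, at a log2 fold change of 0.21 ± 0.06 (edgeR adjusted p = 0.0128), and without a stated strand setting reads from the overlap cannot be told apart.

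Psmb6 (chromosome 11, 70525367 to 70527858) stood at 80.5, 85.1 and 102 CPM in D95N and at 73.7, 77.6 and 81.2 CPM in WT, 1.12-fold at a log2 fold change of 0.16 ± 0.04 (edgeR adjusted p = 0.0123). All but 1 D95N library, 6 of 7, lay above the highest WT library, and D95N 28 stood apart at the top. Without D95N 28 the log2 fold change of Psmb6 was 0.12 (edgeR adjusted p = 0.00948). Psmb4 (chromosome 3, 94884093 to 94886961) stood at 120.0, 134 and 149 CPM in D95N and at 114, 122 and 125 CPM in WT, 1.12-fold at a log2 fold change of 0.17 ± 0.04 (edgeR adjusted p = 0.0105), with 5 of 7 D95N libraries above every WT library.

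Psmb5, the site that most proteasome inhibitors target, did not pass the test. It stood at 36.1, 38.3 and 46.8 CPM in D95N and at 34.2, 35.7 and 38.6 CPM in WT, a log2 fold change of 0.11 ± 0.05 (edgeR adjusted p = 0.101), and the highest value was again that of D95N 28. Psmb2, Psmb3 and Psmb1 had log2 fold changes of 0.12 ± 0.05, 0.13 ± 0.06 and 0.09 ± 0.04 with edgeR adjusted p-values of 0.0998, 0.117 and 0.13. GENCODE M21 lists 4 pseudogenes named after proteasome genes (Psmb5-ps, Psmb6-ps, Psmb6-ps2 and Psmb7-ps2), 0 of which have a row. They were found by symbol, so copies under other names were not looked for, and sequences were not compared. How reads that match several places were handled is not given in the sources used here.

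The ATPase ring at the base of the cap uses ATP to unfold substrates and to open the gate. Psmc4 was the 1 ATPase gene of 6 that was higher. Psmc4 (chromosome 7, 28041707 to 28050101) stood at 81.3, 88.5 and 96.3 CPM in D95N and at 78.4, 80.6 and 84.5 CPM in WT, 1.1-fold at a log2 fold change of 0.13 ± 0.04 (edgeR adjusted p = 0.0151). The groups overlapped, with 5 of 7 D95N libraries above every WT library. Psmc5 stood at 153, 169 and 199 CPM in D95N and at 151, 159 and 167 CPM in WT, a log2 fold change of 0.13 ± 0.05 that missed the threshold (edgeR adjusted p = 0.0540). Psmc1, Psmc2 and Psmc6 had log2 fold changes of 0.09 (edgeR adjusted p = 0.0744), 0.08 (edgeR adjusted p = 0.162) and 0.02 (edgeR adjusted p = 0.725). Psmc3 had -0.01 (edgeR adjusted p = 0.872).

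The non-ATPase subunits hold the ubiquitin receptors, the deubiquitinase and the scaffold of the lid. Psmd3, Psmd12 and Adrm1 were higher. Psmd3, a lid scaffold (chromosome 11, 98682554 to 98695979), stood at 130.1, 137 and 159 CPM in D95N and at 120, 123 and 128 CPM in WT, 1.12-fold at a log2 fold change of 0.16 ± 0.04 (edgeR adjusted p = 0.00536). Every D95N library lay above every WT library, as in Psmd9 alone among the other proteasome genes. These 2 of 35 genes stand beside 1.81% of all tested genes with every D95N library above every WT library, and 0 of 35 beside 1.47% with every D95N library lower. Without D95N 28, its highest library, the log2 fold change of Psmd3 was 0.13 (edgeR adjusted p = 0.00368).

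Psmd12, another lid subunit (chromosome 11, 107479484 to 107504362), stood at 83.0, 89.4 and 99.0 CPM in D95N and at 76.6, 80.7 and 84.8 CPM in WT, 1.12-fold at a log2 fold change of 0.16 ± 0.04 (edgeR adjusted p = 0.0111). In 5 of 7 D95N libraries it lay above every WT library. Adrm1, the ubiquitin receptor that also docks the deubiquitinase Uchl5 (chromosome 2, 180171485 to 180176286), stood at 9.64, 10.4 and 12.7 CPM in D95N and at 8.12, 9.01 and 10.2 CPM in WT, 1.2-fold at a log2 fold change of 0.26 ± 0.07 (edgeR adjusted p = 0.0129). Adrm1 had the largest fold change of the 35 and the lowest level per length, and 4 of 7 D95N libraries lay above every WT library.

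The other 9 non-ATPase genes did not pass. Psmd6, of the lid, stood at 68.3, 77.4 and 83.0 CPM in D95N and at 64.1, 70.2 and 72.3 CPM in WT, a log2 fold change of 0.12 ± 0.04 (edgeR adjusted p = 0.0537). The large base scaffolds Psmd1 and Psmd2 both had 0.09 ± 0.04 (edgeR adjusted p = 0.111 and 0.101), and Psmd1 overlaps Gm21972 on the same strand. Psmd4, an intrinsic ubiquitin receptor, had 0.08 (edgeR adjusted p = 0.169). Psmd14, the metalloprotease that removes ubiquitin chains, had 0.07 (edgeR adjusted p = 0.219), and its catalytically inactive partner Psmd7 had -0.01 (edgeR adjusted p = 0.833). The lid genes Psmd13, Psmd11 and Psmd8 had 0.06, 0.04 and 0.00 (edgeR adjusted p = 0.296, 0.379 and 0.958).

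The 3 chaperones bind the ATPases while the base is built and leave the finished cap. Psmd9 had the smallest p of all 35 genes. It lies on chromosome 5 from 123169413 to 123250131 and stood at 23.9, 26.8 and 28.7 CPM in D95N and at 20.7, 22.5 and 23.8 CPM in WT, 1.18-fold at a log2 fold change of 0.24 ± 0.05 (edgeR adjusted p = 0.00159). Its groups did not overlap, but by a narrow margin between the lowest D95N and the highest WT library. Psmd5 (chromosome 2, 34849734 to 34874968) stood at 49.7, 60.9 and 69.6 CPM in D95N and at 46.7, 50.2 and 52.5 CPM in WT, 1.19-fold at a log2 fold change of 0.26 ± 0.06 (edgeR adjusted p = 0.00559), with 6 of 7 D95N libraries above every WT library. Psmd10, also known as gankyrin, had -0.01 ± 0.06 (edgeR adjusted p = 0.885).

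**Figure D2:**
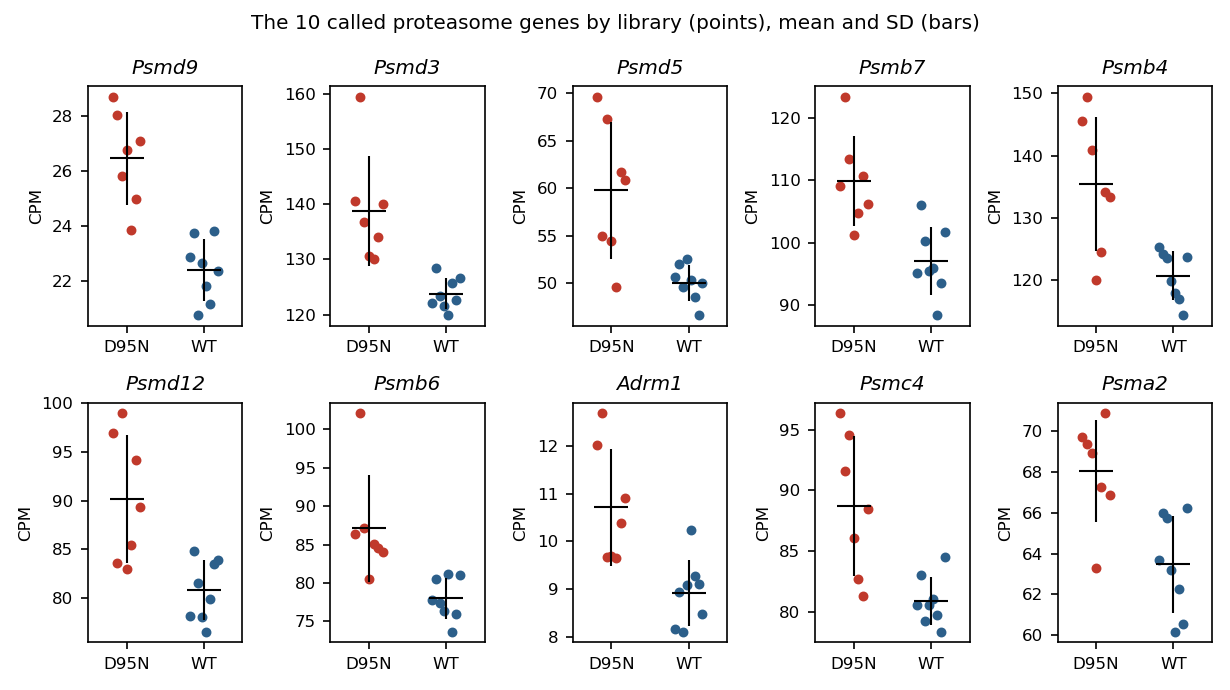
CPM of the 10 proteasome genes that passed the test, 1 panel per gene, in each D95N library (left, n = 7) and WT library (right, n = 8), with mean and SD; the CPM axes do not start at 0. In Psmd9 and Psmd3 all D95N points lie above all WT points, and in the other 8 panels the groups overlap.

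The 7 D95N libraries were not alike. Summed over the core, they stood at 881, 976 and 1029 CPM (lowest, median, highest), against 850, 885 and 928 CPM in WT. Summed over the cap, they stood at 1895, 2054 and 2155 CPM in D95N, against 1859, 1910 and 1970 CPM in WT. D95N 21, 28, 4 and 44 lay above every WT library on both sums, while D95N 41, 42 and 50 lay within the WT range on both. By gene, 26, 24, 24 and 26 of the 35 genes in D95N 21, 28, 4 and 44 were above the highest WT library, against 5 in D95N 41, 7 in D95N 42 and 13 in D95N 50. In D95N 41, 42 and 50, 4, 6 and 1 genes were below the lowest WT library, and in the other 4 D95N libraries 0 were.

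**Figure D3:**
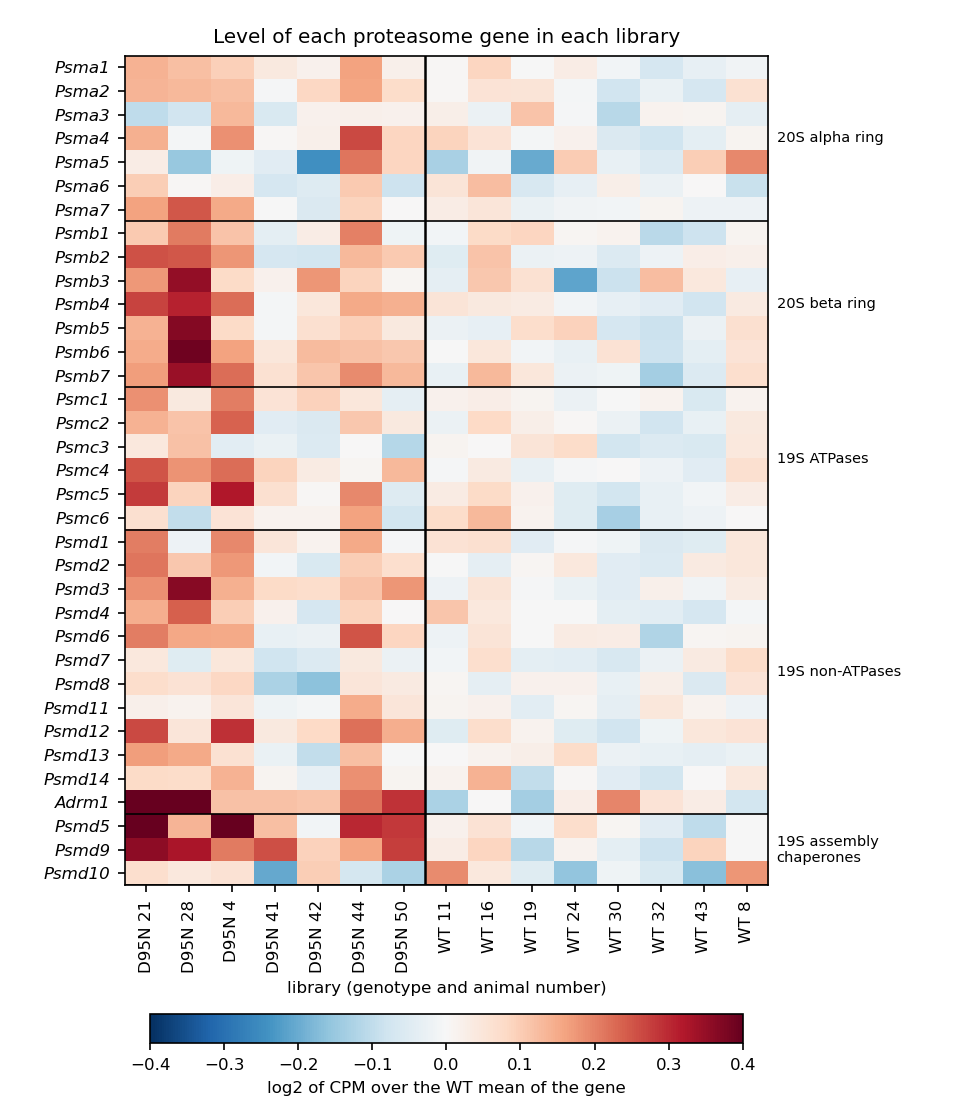
Level of the 35 proteasome genes (rows, by role) in each library (columns, D95N left of WT), as log2 of CPM over the WT mean of the gene; colours end at ±0.4. The columns of D95N 21, 28, 4 and 44 are mostly above the WT mean, with 34, 29, 34 and 33 of 35 genes above the WT median. D95N 50, 41 and 42 have 27, 19 and 20, and the WT libraries have 8 (WT 32) to 29 (WT 16).

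The ratio of summed core to summed cap transcript was 0.470 ± 0.016 in D95N (SD, n = 7) and 0.463 ± 0.006 in WT (SD, n = 8), a difference smaller than the spread in D95N. D95N 28 had the highest ratio at 0.501, and the ratio ran from 0.457 to 0.501 in D95N and from 0.455 to 0.471 in WT. D95N 21 and D95N 4, the libraries with the highest cap sums, had a ratio of 0.457, and so did D95N 41, with a cap sum of 1929 CPM. These are sums of counts, in which long transcripts weigh more.

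**Figure D4:**
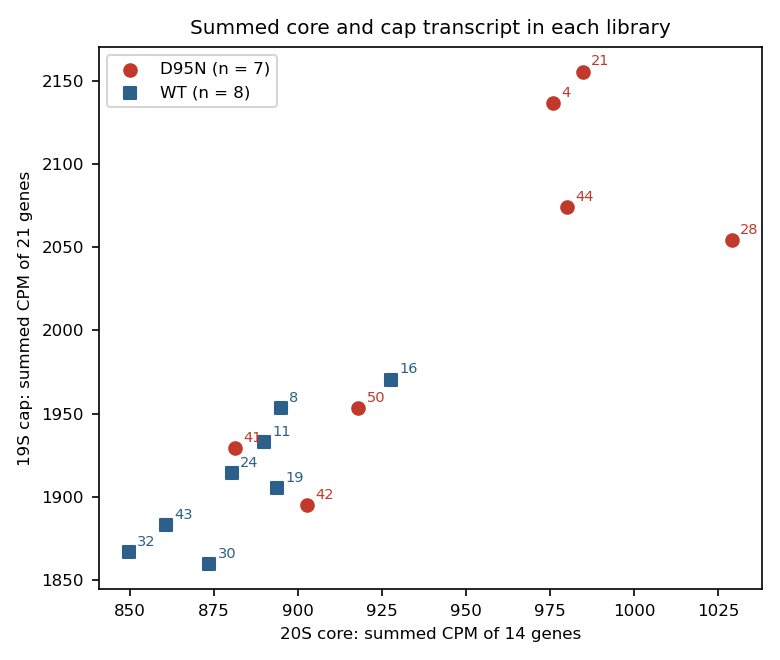
Summed CPM of the 14 core genes (horizontal axis) against summed CPM of the 21 cap genes (vertical axis), 1 point per library. Of 7 D95N points 4 lie above and to the right of all 8 WT points, which fill 850 to 928 CPM for the core and 1859 to 1970 CPM for the cap.

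The spread between libraries was larger in D95N. The median SD of log2 CPM over the 35 genes was 0.10 in D95N and 0.05 in WT, and the SD was larger in D95N for 33 of 35 genes (94.29%). Over all tested genes the median SD was 0.15 in D95N and 0.09 in WT, and for 83.04% the SD was larger in D95N. In each gene centred on its genotype mean, the beta genes varied together most across the 15 libraries, with a mean Pearson r of 0.62 over 21 pairs, beside 0.31 among alpha genes, 0.43 among ATPase genes and 0.44 among non-ATPase genes. Mean r was 0.38 within the core, 0.39 within the cap and 0.37 between core and cap genes. Over all pairs of tested genes positive and negative r cancel, so their mean of 0.00 is not a baseline for a set of genes. These r values share libraries, depth and scaling, and describe covariation over 15 libraries. The centred values were not scaled within genotype, so the D95N libraries, with their larger spread, weigh more in most of them.

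Compared per kilobase of exon, the 35 genes covered a wide range. The highest was the ATPase gene Psmc5, with 125 CPM per kilobase in D95N and 114 in WT, and the lowest was Adrm1, with 2.40 in D95N and 2.003 in WT. The highest stood 52.0 times over the lowest in D95N and 56.9 times in WT. By role, the median per-length level in D95N and in WT was 18.5 and 17.3 for alpha genes, 42.3 and 39.1 for beta genes, 49.1 and 47.5 for ATPase genes, 28.03 and 26.2 for non-ATPase genes and 8.27 and 6.92 for the chaperones. The order of the genes hardly differed between genotypes, with a Spearman rho of 0.996 over the 35 genes, a description since each pair of values comes from the same gene. Exon length is that of the union of all GENCODE M21 exons and may exceed that of the transcript used, which lowers a per-length level.

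**Figure D5:**
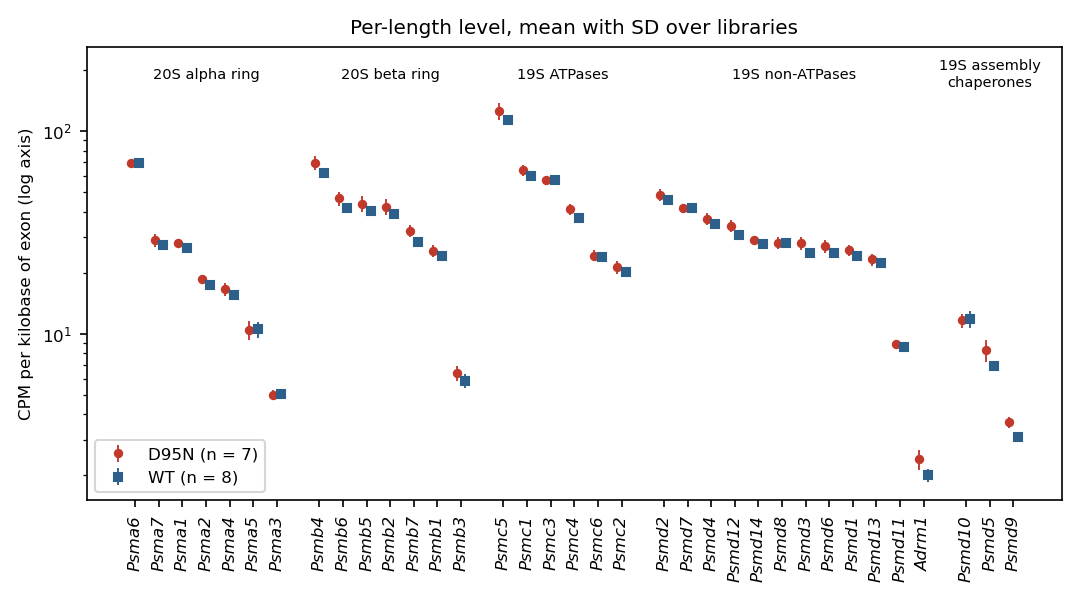
Per-length level of each proteasome gene (CPM per kilobase of exon, log axis), mean with SD, D95N (n = 7) left of WT (n = 8), grouped by role. Psmc5 is highest at 125 in D95N and 114 in WT and Adrm1 lowest at 2.40 in D95N and 2.003 in WT.

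Of the genes around the constitutive proteasome, the immunoproteasome gene Psmb10, whose product takes the place of Psmb7, was higher. Psmb10 stood at 31.2, 37.7 and 40.7 CPM in D95N and at 27.98, 29.998 and 31.8 CPM in WT, 1.23-fold at a log2 fold change of 0.29 ± 0.05 (edgeR adjusted p = 0.00128), with 6 of 7 D95N libraries above every WT library. Its partners Psmb8 and Psmb9 had log2 fold changes of 0.03 and -0.15 and did not pass (edgeR adjusted p = 0.893 and 0.518), so 1 of 3 tested immunoproteasome genes was higher, and Psmb11 and Psma8 did not pass the expression filter. Of the 5 tested genes of alternative caps and inhibitors 0 passed in edgeR (1 had an unadjusted p below 0.05), and the smallest p was that of the nuclear activator Psme3, at a log2 fold change of 0.09 (edgeR adjusted p = 0.0724).

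Of 6 tested assembly genes 1 was higher and 1 was lower. Psmg2, which with Psmg1 guides the alpha ring, was lower, at 12.3, 13.0 and 13.8 CPM in D95N and 14.1, 14.8 and 17.1 CPM in WT, a log2 fold change of -0.21 ± 0.05 (edgeR adjusted p = 0.00460). All 7 D95N libraries lay below every WT library, while Psmg1 had a log2 fold change of 0.02 and the maturation factor Pomp one of 0.08, and neither passed (edgeR adjusted p = 0.808 and 0.107). Ecpas, a proteasome adaptor, was higher at 0.13 ± 0.04 (edgeR adjusted p = 0.0213), a call lost with library totals (edgeR adjusted p = 0.0548).

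Of 10 genes for proteins that bind the proteasome 3 were higher and 0 were lower. Zfand5, a zinc finger protein that stimulates the proteasome, stood at 145, 160 and 169 CPM in D95N and at 130.3, 137 and 146 CPM in WT, a log2 fold change of 0.20 ± 0.04 (edgeR adjusted p = 0.000874). Its arsenite-inducible relative Zfand2a was higher at 0.17 ± 0.05 (edgeR adjusted p = 0.0113), and Akirin2, which brings proteasomes into the nucleus, at 0.16 ± 0.04 (edgeR adjusted p = 0.0133). In 6 of 7 D95N libraries Zfand5 lay above every WT library, and Zfand2a and Akirin2 did so in 5 of 7.

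Of 6 shuttle factor genes Ddi2 was higher and 0 were lower. Ddi2, a ubiquitin-binding protease that activates Nfe2l1 by cleaving it, stood at 87.2, 126 and 176 CPM in D95N and at 75.9, 79.2 and 85.9 CPM in WT, 1.60-fold at a log2 fold change of 0.68 ± 0.10 (edgeR adjusted p = 0.000333). All 7 D95N libraries lay above every WT library. The row of Rsc1a1, a gene on the same strand that overlaps Ddi2, had a log2 fold change of 0.79 ± 0.11 (edgeR adjusted p = 0.000304), and the counts of the 2 rows are uncertain for that reason.

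Nfe2l1 itself stood at 396, 407 and 427 CPM in D95N and at 391, 399 and 406 CPM in WT, a log2 fold change of 0.04 ± 0.02 that did not pass (edgeR adjusted p = 0.258). Of the 7 genes of that list Maff, a small Maf protein that pairs with such factors, was higher and 0 were lower. Maff stood at 2.25, 4.19 and 9.34 CPM in D95N and at 1.71, 2.07 and 3.23 CPM in WT, 2.27-fold at a log2 fold change of 1.18 ± 0.27 (edgeR adjusted p = 0.00439), with 5 of 7 D95N libraries above every WT library. Uba1, the main ubiquitin-activating enzyme, was higher at 0.10 ± 0.03 (edgeR adjusted p = 0.0442), a call that held in 3 of 15 fits that left out 1 library.

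With a correction for GC content and length, 19 of the 35 proteasome genes were higher and 0 were lower, 6 in the core and 13 in the cap, beside 28.9% of 14928 genes called in either direction. With that correction 2498 of all genes were called higher and 1820 lower. The median GC content was 49.5% in the proteasome genes and 49.96% in all tested genes, and their median exon length 2820 and 4454.5 bases. Without the correction, the log2 fold change over the 14928 genes had a Spearman rho of 0.24 with GC content and -0.05 with exon length.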

How the data were processed

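Total RNA from 7 D95N and 8 WT mice was sequenced. The authors deposited unnormalized counts of reads for each Ensembl gene in 15 tables, made with STAR and featureCounts on GRCm38, per the submitters' processing notes. Not given in the sources used here are tool versions, the annotation, the strand setting and how multimapping reads were treated. Of 22524 identifiers 22291 matched GENCODE M21 and 233 did not. Counts were tested with edgeR 4.0.16 in R 4.3.3 (quasi-likelihood test, TMM factors, default expression filter, genotype as the only term, Benjamini-Hochberg adjustment at 0.05). The SE is the log2 fold change over the square root of F. Alternatives used limma 3.58.1, DESeq2 1.42.0, other scalings, a loess correction for GC content and length, blood and meningeal scores as covariates, and each library left out. Tables and motif counts were made in Python 3.11.15. The test was checked on simulated counts. CPM and CPM per kilobase were computed here from the deposited counts.

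The proteasome genes and all other lists were chosen with earlier results of these data known. The naming rule takes Rps9, every proteasome gene, with full values for the called ones, the 12 of smallest p and Psmb5, Psmb6 and Psmb7, and the called genes of each other list, or the 1 of smallest p where none was called. Psmb8, Psmb9, Psmg1, Pomp, Nfe2l1, Slc17a7, Stmn2, Gad1, Syt1, Snap25 and the overlapping genes were named outside that rule, after their values were seen. Paaf1, an assembly gene with no matched row, was not analysed here. A result on ubiquitin genes that the naming rule takes is not reported here. Of the cell type lists, astrocyte markers gave 1 higher and 2 lower of 6, oligodendrocyte markers 0 of 6 called, microglial markers 1 higher of 6, endothelial markers 1 lower of 6, and skeletal muscle markers 0 of 7 tested called. Promoter sequences are those of RefSeq on GRCm38.p6.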

Additional observations from a re-analysis of the deposited data

Results flagged for a closer look

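In 96 groups of values (the proteasome and named neighbouring genes in each genotype), 7 had a highest or lowest library that stood far from its nearest neighbour for the range of the group, and chance alone gives this in about 5% of groups. D95N 28 was highest for Psmb5 at 46.78 CPM (next 39.94), Psmb6 at 102.0 CPM (next 87.13) and Psmd3 at 159.4 CPM (next 140.5). D95N 44 was highest for Psmd11 at 60.99 CPM (next 56.86). Among WT libraries, WT 16 was highest for Psmb2 at 50.91 CPM (next 47.86) and for Psmg2 at 17.13 CPM (next 15.47), and WT 32 was lowest for Psmd6 at 64.13 CPM (next 68.74).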

How the results depend on the processing

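Alternatives were run for the 35 proteasome genes and the called genes of the lists around them, not for single marker genes or overlapping genes. No log2 fold change among them that passed the test turned its direction. Of the 10 called proteasome genes, 9 passed in all 15 fits without 1 library and in 7 of 8 other settings, lost only with the blood and meningeal covariates, and Psma2 is the other. With those covariates, which differed by genotype themselves, 4 genes were higher and 7 lower of 14989, and the called count was 0 in the core and 0 in the cap. With the GC and length correction 13 cap genes and 6 core genes were higher, and DESeq2 gave 8 and 5. Leaving out 1 library gave 3 to 7 core genes (7 without D95N 42), 6 to 9 cap genes and 9 to 16 in all, with 0 lower throughout, and 1952 to 2694 genes higher and 1305 to 2282 lower over the transcriptome. RLE factors, limma-voom and no expression filter each gave 4 core and 6 cap genes. No paired analysis was possible because the animal numbers are not shared between genotypes. Proteasome genes with log2 fold changes of up to 0.13 (Psmc5) did not pass at this depth and number of libraries, so smaller differences may go uncalled.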

Other observations

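Among single pairs of proteasome genes, each centred on its genotype mean over 15 libraries, Psma7 and Psmd4 varied most alike, with a Pearson r of 0.90. Psma3 was least like the rest, with a mean r of -0.02 with the other genes. The pairs were chosen after their values were seen and share libraries and scaling, and the D95N libraries, with their larger spread, weigh more in most of them. Rps27a encodes ubiquitin fused to a ribosomal protein. It did not pass the expression filter, with medians of 0.192 CPM in D95N and 0.155 CPM in WT. How reads that match several places were handled is not given, so these counts may not measure its level.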
